A study of Mus musculus with 8 samples.

Results

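Genes of bone matrix, of the cells that lay it down and of the cells that remove it were followed in RNA of mouse olfactory mucosa, which lies on the thin turbinate bones of the nose and can carry bone along when it is dissected. The genes are Ibsp, Bglap, Spp1, Alpl, Acp5, Ctsk, Mmp13 and Sparc, and every probe set whose platform gene symbol is one of these names or an older alias was taken. Of the 8 genes, 6 had a probe set in the platform annotation used here, with 7 probe sets among 12488 in the table. No probe set carried the name of Bglap or Spp1 alone or with other genes, and both are not analysed here. In the mouse assembly GRCm38.p6, RefSeq places Ibsp on chromosome 5, Mmp13 and Acp5 on chromosome 9, Ctsk on chromosome 3, Alpl on chromosome 4 and Sparc on chromosome 11.

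All mice had lost both olfactory bulbs by surgery, which removes the target of the olfactory neurons. The 8 single-colour arrays form 4 groups of 2, namely Ccl3-/- mice injected with CCL3, Ccl3-/- mice injected with carrier, C57BL/6 wild-type mice injected with CCL3 and C57BL/6 wild-type mice injected with carrier. CCL3, also called MIP-1a, is a chemokine that draws in macrophages and other leukocytes. The labels give no age, sex, dose or time, do not say which part of Ccl3 was deleted, and do not say whether replicates came from separate animals, and every p-value here therefore reflects array-to-array spread alone, which may be technical.

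In bone, osteoblasts secrete a collagen matrix and mineralise it, and osteoclasts, large cells formed from the macrophage lineage, dissolve it. Ibsp, Sparc and Alpl act on the building side, and Acp5 and Ctsk are classical osteoclast products. Mmp13 is a collagenase of osteoblasts and hypertrophic chondrocytes, though not of these cells alone. Several of them are made outside bone as well: Sparc by fibroblasts and endothelium, Alpl by many epithelia, and Ctsk and Acp5 by some macrophages.

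The arrays had nearly the same scale, with median intensities of 581.4 to 660.3. Omp, the marker of mature olfactory neurons, was measured at 8657 to 21778.7 on the arrays labelled Ccl3-/- and at 4251.1 to 14771.2 on the wild-type arrays, so the labelled tissue was present on every array. The probe set of Ccl3 went against the genotype labels, with 727.3 to 812.2 on the 4 arrays labelled Ccl3-/- and 159.4 to 386.5 on the 4 wild-type arrays. If the probe set lies outside the deleted part it checks nothing. If it lies inside, the labels themselves come into question, and exchanged labels would reverse every genotype direction. Neither was tested, and genotype directions rest on the labels throughout. Wild-type carrier replicate 1 stood apart in its Gapdh 3' to 5' signal ratio, a sign of RNA quality, at 2.59, against 0.755 to 1.31 on the other arrays.

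Differences are given on the scale log2(intensity + 102.3), as group means with the standard error (SE) of a limma fit over 8150 probe sets and all 4 groups. That scale understates differences of dim genes. No probe set passed a Benjamini-Hochberg adjusted p of 0.05 in limma in any of the 7 comparisons, while 121 to 932 had an unadjusted p under 0.05, so no bone gene is called changed and each is given by its values. Each of the 6 genes is represented by its brightest probe set, whose lowest single value was 442.4, above the filter of 362.7 on all 8 arrays.

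Ibsp encodes bone sialoprotein, a phosphoprotein of mineralised matrix that binds cells and nucleates mineral. Its intensity was 750.7 and 772.5 on the arrays labelled Ccl3-/- with CCL3, 3258.3 and 3090.6 on those labelled Ccl3-/- with carrier, 442.4 and 1736.5 on wild-type CCL3 arrays, and 1088.9 and 785.4 on wild-type carrier arrays. Both carrier arrays labelled Ccl3-/- lay above all 6 other arrays, while the wild-type CCL3 pair spanned the levels of the remaining arrays. After carrier, Ibsp was 3.19-fold higher on the arrays labelled Ccl3-/- (log2 1.67 ± 0.47 SE, n = 2 per group), with an adjusted p of 0.375 in limma. The CCL3 effect, CCL3 minus carrier, was -1.92 ± 0.47 under the label Ccl3-/- (adjusted p = 0.722 in limma). In the wild type it was -0.04 ± 0.47, with 0.84 when wild-type CCL3 replicate 1 was dropped and -0.92 when wild-type CCL3 replicate 2 was. The difference between both CCL3 effects was -1.88 ± 0.66 (adjusted p = 0.908 in limma), and dropping wild-type CCL3 replicate 2 brought it to -1.01.

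A second probe set of Ibsp was dim. It passed the filter only through the carrier arrays labelled Ccl3-/-, where it read 423.3 and 380.7. The other arrays read 286.6 and 22.5 with CCL3 and the label Ccl3-/-, 105.5 and 175.8 in the wild type with CCL3, and 225.8 and 115.8 in the wild type with carrier. Since its place among the tested probe sets came through that pair, its values are a description and add no support to those of the brighter probe set.

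Mmp13, a collagenase that cleaves fibrillar collagens, followed Ibsp most closely among the members. Its intensity was 1145.1 and 1208.9 on the arrays labelled Ccl3-/- with CCL3, 8402.5 and 3480.6 on those labelled Ccl3-/- with carrier, 840.2 and 1879.9 on wild-type CCL3 arrays, and 3955.6 and 1165.5 on wild-type carrier arrays. Replicates differed widely except in the first of these groups, and wild-type carrier replicate 1 lay above carrier replicate 2 labelled Ccl3-/-. After carrier, Mmp13 was at 1.28 ± 0.57 on the arrays labelled Ccl3-/- against the wild type (n = 2 per group, adjusted p = 0.437 in limma). Leaving out single carrier arrays moved it to 0.44 (wild type, replicate 2), 2.12 (wild type, replicate 1) and 0.66 (labelled Ccl3-/-, replicate 1). The CCL3 effect was -2.11 ± 0.57 under the label Ccl3-/- (adjusted p = 0.748 in limma), where the groups did not overlap. The wild-type value was -0.73 ± 0.57, with overlapping arrays, and dropping wild-type carrier replicate 1 turned it to 0.11.

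Ibsp and Mmp13 had a Pearson r of 0.86 and a Spearman rho of 0.90 over the 8 arrays, the highest of the 15 pairs of member genes by both measures. Carrier replicate 1 labelled Ccl3-/- had the highest value of both genes. Their promoters are shown because the pair moved together. Each runs from 250 bases before to 50 bases after the gene's start in RefSeq (GRCm38.p6), 5′ to 3′ on the gene's strand, and capitals mark ACCACA, the core read by RUNX factors such as the osteoblast regulator Runx2, and TGANTCA, the AP-1 motif, each searched on both strands. The Ibsp promoter is at chr5:104299037-104299336 (plus strand) and the Mmp13 promoter at chr9:7272264-7272563 (plus strand).
Ibsp: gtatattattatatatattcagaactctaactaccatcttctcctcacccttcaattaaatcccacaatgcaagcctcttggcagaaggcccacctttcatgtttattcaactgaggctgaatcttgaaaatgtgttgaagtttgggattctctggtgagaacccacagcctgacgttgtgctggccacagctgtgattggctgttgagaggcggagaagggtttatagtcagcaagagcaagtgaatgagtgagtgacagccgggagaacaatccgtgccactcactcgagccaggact
Mmp13: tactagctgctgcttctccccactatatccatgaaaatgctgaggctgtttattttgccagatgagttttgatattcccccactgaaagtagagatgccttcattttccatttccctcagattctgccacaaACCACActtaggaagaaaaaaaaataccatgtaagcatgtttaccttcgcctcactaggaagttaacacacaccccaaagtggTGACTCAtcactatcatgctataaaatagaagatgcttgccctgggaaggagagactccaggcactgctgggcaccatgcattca
The Mmp13 window held 1 match of ACCACA, beginning 118 bases before the start, and 1 match of TGANTCA, beginning 35 bases before it, and the matches do not overlap. The Ibsp window held neither. Among 32851 mouse promoters of the same length, 16.8% held ACCACA and 7.81% held TGANTCA. The pair therefore shares neither motif in these windows, which says nothing of sites outside them. Among the outermost windows of the other members, that of Sparc held 1 ACCACA, beginning at base 36 after the start.

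**Figure D1:**
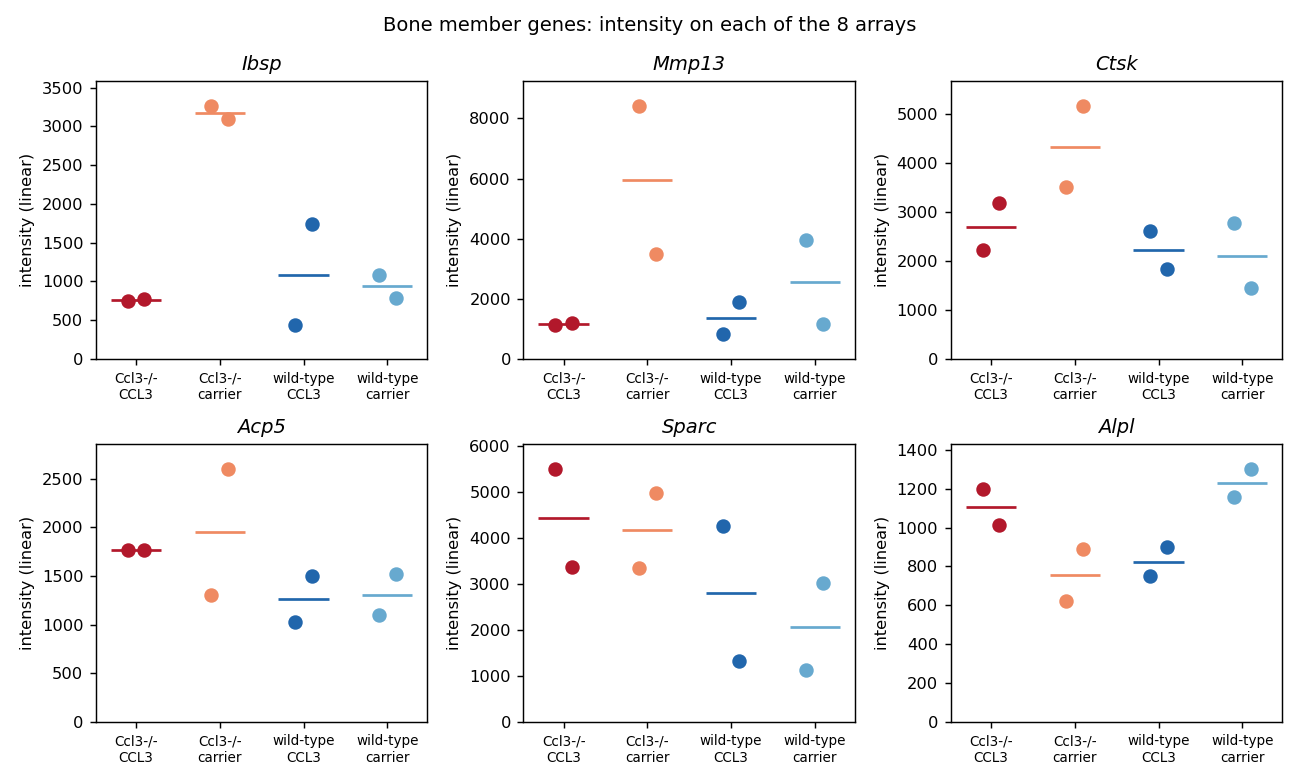
Intensity on a linear axis for the 6 measured bone genes, with 1 point for each array, 2 arrays in each of 4 groups, and a line at each group mean. Ibsp and Ctsk have both carrier arrays labelled Ccl3-/- above the other 6 arrays, and Alpl has that pair among its lower arrays, at 623.1 and 889.7.

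Ctsk and Acp5 stand for the resorbing side. Ctsk encodes cathepsin K, the protease with which osteoclasts digest bone collagen. It read 2213.1 and 3183.1 on the arrays labelled Ccl3-/- with CCL3, 3506.6 and 5148.8 on those labelled Ccl3-/- with carrier, 2608.4 and 1832.1 on wild-type CCL3 arrays, and 2776.9 and 1438.9 on wild-type carrier arrays. As with Ibsp, both carrier arrays labelled Ccl3-/- lay above all others. Of the 6 member genes 2 had this pattern, Ibsp and Ctsk, and so did 4.43% of all tested probe sets. Ctsk was 2.07-fold higher after carrier (log2 1.05 ± 0.36, n = 2 per group, adjusted p = 0.394 in limma), and 0.60 without wild-type carrier replicate 2. It was at 0.27 ± 0.36 after CCL3, where dropping CCL3 replicate 2 labelled Ccl3-/- gave 0.016 and dropping CCL3 replicate 1 so labelled gave 0.52.

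Acp5 encodes tartrate-resistant acid phosphatase, the enzyme stained to find osteoclasts. Its values were 1762.6 and 1763.3 on the arrays labelled Ccl3-/- with CCL3, 1302.2 and 2599.8 on those labelled Ccl3-/- with carrier, 1025.1 and 1495.6 on wild-type CCL3 arrays, and 1100.1 and 1514.8 on wild-type carrier arrays. Its genotype difference was nearly equal after both injections, at 0.48 ± 0.34 after carrier and 0.47 ± 0.34 after CCL3 (adjusted p = 0.576 and 1.00 in limma). After CCL3 it was 0.22 when wild-type CCL3 replicate 1 was dropped and 0.73 when replicate 2 was. The carrier value was 0.01 without carrier replicate 2 labelled Ccl3-/- and 0.95 without carrier replicate 1 so labelled. Acp5 and Ctsk correlated at a Pearson r of 0.39 and a Spearman rho of 0.24 over the 8 arrays, below the pairs of Ctsk with Ibsp (0.54 and 0.45) and of Ctsk with Mmp13 (0.53 and 0.57).

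Sparc encodes osteonectin, a collagen-binding matrix protein. It read 5490.3 and 3351.8 on the arrays labelled Ccl3-/- with CCL3, 3344.1 and 4978.3 on those labelled Ccl3-/- with carrier, 4259.3 and 1313.5 on wild-type CCL3 arrays, and 1120.3 and 3006.4 on wild-type carrier arrays. Its 3 lowest values were all on wild-type arrays, while wild-type CCL3 replicate 1 lay among the arrays labelled Ccl3-/-. The genotype difference was 1.10 ± 0.56 after carrier, 0.82 ± 0.56 after CCL3 (n = 2 per group) and 0.96 ± 0.40 averaged over both (n = 4 per group, adjusted p = 0.808 in limma). Dropping wild-type CCL3 replicate 2 brought the value after CCL3 to 0.011 and the average to 0.56, and dropping wild-type CCL3 replicate 1 brought the value after CCL3 to 1.63. The array with the lowest Sparc was wild-type carrier replicate 1, the one with the high Gapdh ratio, and without it the carrier difference was 0.43, against 1.78 without wild-type carrier replicate 2. The part of RNA quality in this difference was not tested.

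Alpl encodes tissue-nonspecific alkaline phosphatase, which frees phosphate for mineral. It ran opposite to Ibsp after carrier, with 1197.8 and 1016 on the arrays labelled Ccl3-/- with CCL3, 623.1 and 889.7 on those labelled Ccl3-/- with carrier, 748.3 and 898 on wild-type CCL3 arrays, and 1158.7 and 1302 on wild-type carrier arrays. Groups did not overlap in any of the 4 simple comparisons, which with 2 arrays a group is common. Over all probe sets it held for 22.9% lower after carrier, 16.5% higher after CCL3, 22.9% higher with CCL3 under the label Ccl3-/- and 18.1% lower with CCL3 in the wild type. Its genotype difference was -0.65 ± 0.27 after carrier and 0.39 ± 0.27 after CCL3 (adjusted p = 0.418 and 1.00 in limma, n = 2 per group), and the carrier value was -0.42 when carrier replicate 1 labelled Ccl3-/- was left out. The CCL3 effect was 0.51 ± 0.27 under the label Ccl3-/-, against -0.53 ± 0.27 for wild-type mice, and the first of these was 0.28 when carrier replicate 1 labelled Ccl3-/- was dropped. The difference between both CCL3 effects was 1.04 ± 0.37, with an adjusted p of 0.908 in limma.

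**Figure D2:**
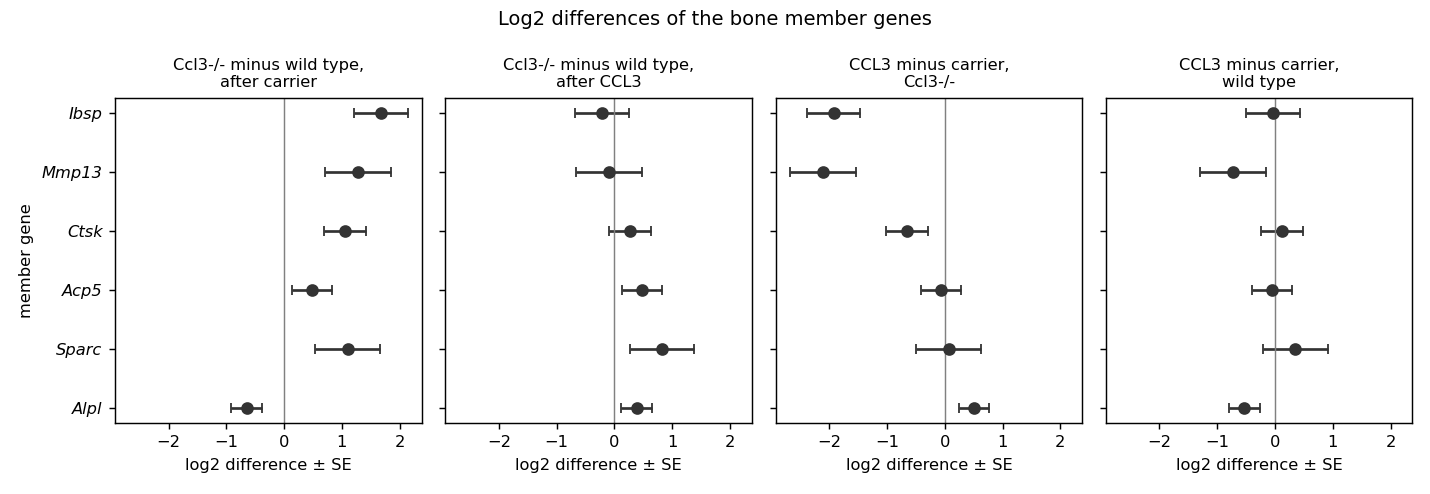
Log2 differences of the 6 bone genes in the 4 simple comparisons, on the log2(intensity + 102.3) scale, with points at the limma estimate and bars of 1 SE (n = 2 per group). After carrier 5 genes lie right of 0 and Alpl lies left at -0.65, and for CCL3 minus carrier under the label Ccl3-/- Ibsp lies at -1.92 and Mmp13 at -2.11.

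After carrier, 5 of the 6 genes had higher and 1 had lower means on the arrays labelled Ccl3-/-, with a median log2 difference of 1.07, against -0.03 over all tested probe sets. The median was 0.65 without wild-type carrier replicate 2, and no bone gene had an adjusted p under 0.05 in limma in any setting tried. At an unadjusted p under 0.05, 3 genes were higher (Ibsp, Ctsk and Mmp13) and 1 was lower (Alpl), where the background over all tested probe sets was 5.03% higher and 6.40% lower. Arrays did not overlap for 3 genes with higher values (Ibsp, Ctsk and Sparc) and 1 with lower values (Alpl), against a background of 15.6% and 22.9%. The summed intensity of the 6 genes was 20436.8 and 20187.8 on the carrier arrays labelled Ccl3-/- and 11200.5 and 9213 on the wild-type carrier arrays. In bulk RNA, a change in the number of cells of a type and a change in RNA per cell cannot be told apart.

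After CCL3, the genotype difference of the members ran from -0.21 for Ibsp to 0.82 for Sparc. Of the 6 genes 4 had higher and 2 lower means on the arrays labelled Ccl3-/-, the median was 0.33 against 0.02 over all probe sets, and 0 had an unadjusted p under 0.05 in limma, where the background was 1.48%. Arrays did not overlap for Alpl and Acp5, both higher, against a background of 16.5%. Averaged over both injections the median was 0.63 (0.34 without wild-type CCL3 replicate 1), and Ctsk (0.66 ± 0.26, or 0.43 without wild-type carrier replicate 2) and Sparc (0.96 ± 0.40) had an unadjusted p under 0.05, both higher, against a background of 5.93% in all, 3.03% higher and 2.9% lower. None of the 6 genes separated the 4 arrays labelled Ccl3-/- from the 4 wild-type arrays without overlap, which 1.31% of probe sets did with higher and 1.88% with lower values.

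Under the label Ccl3-/-, the CCL3 effect had a median of -0.36 over the members, against 0.03 over all probe sets. The median ranged from -0.73 without carrier replicate 1 so labelled to -0.02 without carrier replicate 2. Ibsp and Mmp13 were the members with an unadjusted p under 0.05, both lower, against a background of 2.12% lower, 2.77% higher and 4.9% in all, and with Ctsk they made 3 genes with lower, non-overlapping values, against 16.0% of probe sets. Alpl was higher without overlap, as were 22.9% of probe sets. In the wild type the median was -0.05, 0 members had an unadjusted p under 0.05 in limma (background 4.29%, of which 1.98% higher and 2.32% lower), and Alpl alone did not overlap, with lower values (background 18.1%). Left-out arrays moved this median to -0.48 at most (wild-type CCL3 replicate 2), with -0.29 when carrier replicate 2 was the one dropped. These comparisons share the carrier arrays with the genotype comparison after carrier, so a high pair of carrier arrays labelled Ccl3-/- enters both.

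For the difference between both CCL3 effects the median was -0.53, and Ibsp (-1.88) and Alpl (1.04) had an unadjusted p under 0.05, against a background of 5.06% in all, 3.19% higher and 1.87% lower. That median was -0.25 without carrier replicate 2 labelled Ccl3-/- and -0.92 without wild-type CCL3 replicate 2. Averaged over both genotypes, the CCL3 effect was -1.42 ± 0.41 for Mmp13 (n = 4 per group, adjusted p = 0.969 in limma) and -0.98 ± 0.33 for Ibsp, where dropping wild-type CCL3 replicate 1 gave -0.54. Both were lower with an unadjusted p under 0.05, against a background of 4.53% in all, 2.36% higher and 2.17% lower. No member separated the 4 CCL3 arrays from the 4 carrier arrays, as 1.58% of probe sets did with higher and 1.14% with lower values.

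**Figure D3:**
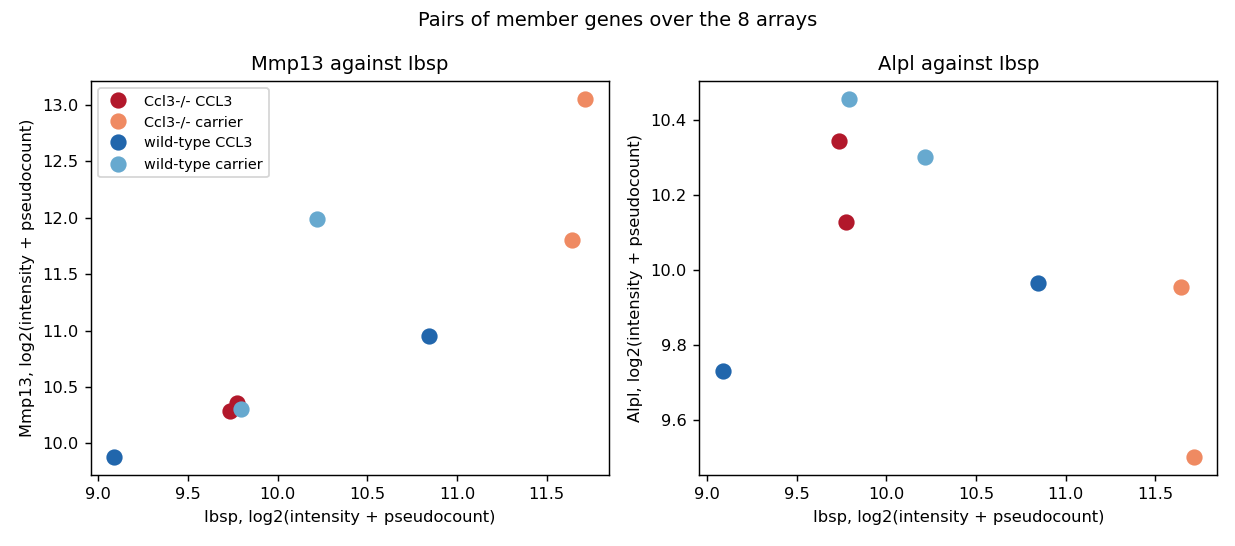
Mmp13 and Alpl plotted against Ibsp over the 8 arrays, each on the log2(intensity + 102.3) scale and coloured by group. The carrier arrays labelled Ccl3-/- sit at the high end of Ibsp, with high Mmp13 (8402.5 and 3480.6 in intensity) and low to middling Alpl (623.1 and 889.7).

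Correlations among the members were mixed. Pearson correlations between member genes over the 8 arrays ran from -0.51 for Alpl with Ctsk to 0.86 for Ibsp with Mmp13. Sparc correlated with Ibsp at -0.09 and with Mmp13 at -0.26. All members but Alpl varied more between replicates than most probe sets, with Ibsp, Mmp13 and Sparc foremost. The pooled SD within groups was 0.64 for Ibsp, 0.83 for Mmp13 and 0.81 for Sparc on the log2 scale. The median over tested probe sets was 0.30, and 93.3%, 98.0% and 97.8% of probe sets had a smaller SD. For Ibsp the wild-type CCL3 pair had an SD of 1.24, against 0.026, 0.052 and 0.30 in the other groups. Ctsk and Acp5 had a pooled SD of 0.45 and 0.41, and 77.3% and 71.6% of probe sets had a smaller one. Alpl was the steadiest member, with an SD of 0.20, and 21.6% of probe sets had a smaller one.

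Other bone genes on the array were set beside the members, from lists drawn up with earlier results of these data known. In all lists each gene counted by its brightest probe set. Of 30 further osteoblast and matrix genes, 22 were on the array and 19 were tested, and after carrier 9 had higher and 10 lower means on the arrays labelled Ccl3-/-, with a median of -0.01. At an unadjusted p under 0.05, 1 of the 19 was higher and 4 were lower, against a background of 5.03% higher and 6.4% lower. Col1a1, the main collagen of bone and of fibrous tissue, read 4056 and 6904.2 on the carrier arrays labelled Ccl3-/- and 8367.1 and 16088.4 on the wild-type carrier arrays. Its difference was -1.12 ± 0.44 (adjusted p = 0.412 in limma), and a dimmer probe set of the gene gave -0.37 ± 0.35. Dlx5, a homeobox factor of osteoblasts, was at -1.01 ± 0.30 and Fmod, a collagen-binding proteoglycan, at -1.28 ± 0.40. Lox, which crosslinks collagen, was at 0.85 ± 0.30, although its other, dimmer probe set gave -0.70 ± 0.48. On the brighter one both carrier arrays labelled Ccl3-/- lay above all others, as on 4.43% of probe sets. Its CCL3 effect under that label was -1.88 ± 0.30, against 0.10 ± 0.48 for the dimmer one. In the wild type the effect was -0.96 ± 0.30, against -0.29 ± 0.48 for the dimmer one. Unlike Ibsp, the brighter Lox probe set thus was lower with CCL3 in both genotypes. It read 388.2 to 451 on the CCL3 arrays and 930.1 to 2412.8 on the carrier arrays, and 1.14% of probe sets were lower without overlap in this way. Over the list, 12 genes had a positive CCL3 effect under the label Ccl3-/- and 7 a negative one. Matrix genes on this list thus lay on both sides of 0 on the arrays where Ibsp, Mmp13 and Ctsk were high.

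The remaining osteoclast genes had small differences on balance. Of 20 listed, 15 were on the array and 13 were tested, 8 with higher and 5 with lower means after carrier and a median of 0.10. At an unadjusted p under 0.05, 0 of the 13 were higher and 1 was lower, against a background of 5.03% higher and 6.4% lower. The 1 lower gene was Src, a kinase that osteoclasts need to resorb bone, at -1.13 ± 0.34 (adjusted p = 0.375 in limma). Calcr, the calcitonin receptor, and Itgb3, the osteoclast integrin chain, were below the filter, at 4.8 to 69.8 and 17.8 to 114.8 over the 8 arrays. Regulators of bone turnover gave a median of 0.07 after carrier with 6 of 12 tested genes higher, and the osteoclast-inducing ligand Tnfsf11 was below the filter. By its brightest probe set, no regulator had an unadjusted p under 0.05 in that comparison, as 11.4% of all tested probe sets did. A dimmer probe set of Fgfr2 was at 0.63 ± 0.24 (unadjusted p = 0.028 in limma), against 0.30 ± 0.26 for its brighter one.

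Cartilage genes, which the nasal septum can add to a dissection, were few. Of 5 tested, 4 were lower after carrier on the arrays labelled Ccl3-/-, with a median of -0.43, and all 5 had a positive CCL3 effect under that label, with a median of 0.67. The mean centred log2 level of the list was -0.37 and -0.42 on the carrier arrays labelled Ccl3-/-, against -0.43 on wild-type carrier replicate 1 and 0.41 on replicate 2, so as a list they were lower than on replicate 2 alone. Chad, a cartilage matrix protein, read 1421 and 1673.3 on the arrays labelled Ccl3-/- with CCL3 and 979.1 and 882 on those with carrier, a difference of 0.67 ± 0.24 (adjusted p = 0.940 in limma). Acan, the large proteoglycan of cartilage, read 2559.7 and 1177.2 with CCL3 and 435.2 and 397.4 with carrier, at 1.83 ± 0.64. Over the 8 arrays the mean of the cartilage genes correlated with that of the members at a Pearson r of -0.58 and a Spearman rho of -0.24.

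Skeletal muscle, another tissue that dissection can bring along, gave lower means for 11 of 13 tested genes after carrier, with a median of -0.29, and correlated with the members at a Pearson r of -0.19. Of 10 tested neutrophil and marrow genes, 7 had higher and 3 lower means under the label Ccl3-/- after carrier, with a median of 0.54. After CCL3, 8 were higher and 2 lower, with a median of 1.02. Ngp, a neutrophil granule protein, read 1976.5 and 608.7 on the carrier arrays labelled Ccl3-/- and 166.4 and 90.7 on the wild-type carrier arrays. The summed intensity of the 12 marrow and neutrophil genes on the array, most of it from Ltf and Lcn2, was 124177.5 and 174728.9 on the carrier arrays labelled Ccl3-/-, against 99007.9 and 89876.2 on the wild-type carrier arrays. After CCL3 the sums overlapped, at 113954 and 93951.6 under the label Ccl3-/- and 96245.1 and 100596.9 in the wild type. With the 10 tested genes weighted equally, the genotypes did not overlap after either injection. Their mean centred log2 level after carrier was 0.44 and 0.33 under the label Ccl3-/- and -0.20 and -0.63 in the wild type. After CCL3 it was 0.99 and 0.14 under the label Ccl3-/- and -0.27 and -0.82 in the wild type. The mean of these 10 genes correlated with that of the members at a Pearson r of 0.54 and a Spearman rho of 0.81. The part of marrow or neutrophil RNA in the members' values was not tested.

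Macrophage markers, relevant because Ctsk and Acp5 are also made by macrophages, gave 8 higher and 6 lower of 14 tested after carrier, with a median of 0.17. Their summed intensity over 18 genes on the array was 44170.3 and 49988.5 on the carrier arrays labelled Ccl3-/- and 39073.1 and 50375.3 on the wild-type carrier arrays, so the groups overlapped. No value in the table is 0, with 0.2 as the lowest. The part of macrophage RNA in the values of Ctsk and Acp5 was not tested.

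Red cell genes, a measure of blood in the tissue, were at 88005.2 and 92970.5 in summed intensity on the CCL3 arrays labelled Ccl3-/-, against 49731.7 and 42152.1 on the carrier arrays so labelled. All 7 tested had a positive CCL3 effect there, with a median of 1.02. On those CCL3 arrays Ibsp and Mmp13 were lower than on the carrier arrays so labelled, and within their range on the wild-type arrays. Over the 8 arrays the mean of the red cell genes correlated with that of the members at a Pearson r of -0.19 and a Spearman rho of -0.26. The part of blood RNA in the CCL3 effects of Ibsp and Mmp13 was not tested. After carrier the genotype medians were -0.11 for red cell genes, -0.15 for 8 endothelial, 0.24 for 4 mature olfactory neuron and 0.22 for 6 sustentacular cell genes. The amount of bone in each dissection was not measured by other means, and its part in the values of the members was not tested.

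**Figure D4:**
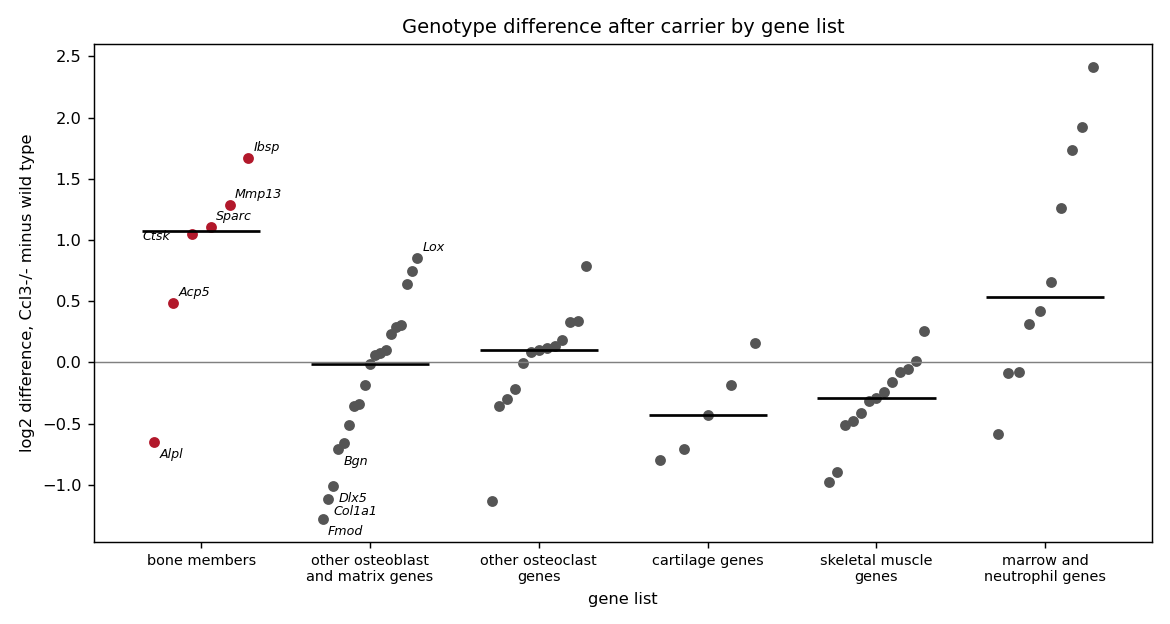
Log2 difference after carrier, arrays labelled Ccl3-/- minus wild type, for each tested gene of 6 lists, with a line at each list's median. The bone members sit at a median of 1.07, the other osteoblast and matrix genes at -0.01, the cartilage genes at -0.43 and the marrow and neutrophil genes at 0.54.

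Among all tested genes with 1 symbol, the 10 whose log2 values were most like the mean of the 6 members over the 8 arrays were Tm9sf3, Emp1, Smc4, Psmd4, Gtf2a2, Ubxn1, Socs3, Tcf12, Eif2s2 and Acot9, with Pearson r from 0.90 to 0.96. Having been chosen for that likeness, they also lay higher on the carrier arrays labelled Ccl3-/-, by 0.33 for Gtf2a2 to 1.26 for Emp1. The 5 most like Ibsp were Arg1 (Pearson r 0.95, Spearman rho 0.93), Nop58, Zfp943, Dpm1 and Rsl1d1. Arg1, which encodes the arginase of the urea cycle and of some activated macrophages, had a genotype difference of 1.17 after carrier and a CCL3 effect of -1.69 under the label Ccl3-/-. Ranked over 6175 genes on 8 arrays, such values describe a shared pattern and nothing of shared control. None of the 15 is among the listed bone or cartilage genes.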

How the data were processed

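Olfactory mucosa RNA was hybridised to 8 single-colour arrays, grouped by their titles. The values are intensity on a linear scale, as deposited by the authors, with software and scaling unnamed in the labels. Array means after trimming 2% at each end differed by 0.00834%, and no normalization was added. The annotation gave 10855 of 12488 probe sets 1 symbol, 396 several and 1237 none. The 66 control probe sets were left out.

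Values entered as log2(intensity + 102.3), from the deposited intensities, the pseudocount being the 20th percentile of the table. Testing required more than 362.7, the 40th percentile, on 2 or more arrays, and 8150 probe sets remained. limma 3.58.1 (R 4.3.3) fitted all 4 groups with an intensity trend, 4 residual degrees of freedom and Benjamini-Hochberg adjustment. The scripts were tested on simulated data. Precision is limited by having 8 arrays.

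The members, the 11 further gene lists and the naming rule were chosen with earlier results of these data known. Named were all member probe sets, up to 4 genes of a list with the smallest p in a comparison, and the 10 and 5 genes most like the members' mean and Ibsp. Calcr, Itgb3, Tnfsf11, Omp, Ccl3, Gapdh, Ltf and Lcn2 were named outside that rule, as was Fgfr2 for its dimmer probe set. Alternatives were other normalizations, pseudocounts and filters, no trend, a replicate block, only the groups compared, and each array left out. Promoter sequences came from RefSeq (GRCm38.p6). Figures were drawn with matplotlib 3.10.9.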

Additional observations from a re-analysis of the deposited data

Results flagged for a closer look

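Alpl had a positive CCL3 effect under the label Ccl3-/- and a negative one in the wild type, with no overlap between arrays in either. Non-overlap of that kind was common, at 22.9% of probe sets higher under the label Ccl3-/- and 18.1% lower in the wild type. The opposite signs of its genotype difference after carrier and after CCL3 are the same 4 group means read the other way. The difference between both effects was 1.04 ± 0.37 (SE, n = 2 per group). Its limma adjusted p was 0.908, above the threshold.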

How the results depend on the processing

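No member passed an adjusted p of 0.05 in limma under any of 18 settings, the lowest being 0.0881 for Mmp13 in the CCL3 average without wild-type carrier replicate 2. Of 854 member values 812 kept their direction and 42 reversed. With the replicate number as a block, 1 probe set passed for genotype after carrier, 1 for the genotype average and 1 for the CCL3 average, against 0 without it. Fitting only the groups compared gave 1 for genotype after CCL3. Deviations of same-numbered arrays correlated at -0.16 to 0.18 over the pairs of groups, not above 0.1 in every pair. These values do not show a pairing by number over all groups, and the main fit used none. A pairing within some of the groups was not tested. The wild-type CCL3 effect of Ibsp turned to 0.017 with quantile normalization, 0.022 with 1 median per array and 0.010 with the pseudocount at the 40th percentile. That of its dim probe set turned to 0.049 with quantile normalization and 0.026 with cyclic loess. With 1 median per array, Acp5 turned to 0.012 for CCL3 in the wild type and Alpl to 0.014 for the CCL3 average.

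Leaving out single arrays gave 0 to 110 probe sets passing for genotype after carrier, 0 to 73 for CCL3 in the wild type, 0 to 23 for the CCL3 average, and 0 to 1 for genotype after CCL3, CCL3 under the label Ccl3-/- and the genotype average. A lone array left in a group was assumed to vary like the other groups. The members' median ranged from 0.65 to 1.14 for genotype after carrier, from -0.73 to -0.019 for CCL3 under the label Ccl3-/-, from -0.48 to -0.047 for CCL3 in the wild type, from 0.34 to 0.73 for the genotype average and from -0.92 to -0.25 for the interaction. Acp5 ranged from -0.29 to 0.18 for the CCL3 average, from -0.53 to 0.41 for CCL3 under the label Ccl3-/-, from -0.31 to 0.20 for CCL3 in the wild type and from -0.48 to 0.46 for the interaction. Alpl ranged from -0.12 to 0.10 for the CCL3 average and Ctsk from -0.33 to 0.57 for CCL3 in the wild type. Ibsp ranged from -0.92 to 0.84 for CCL3 in the wild type and from -1.09 to 0.67 for genotype after CCL3, and its dim probe set from -0.45 to 0.14, from -0.95 to 0.69 and, for the genotype average, from -0.016 to 0.80. Mmp13 ranged from -1.57 to 0.11 for CCL3 in the wild type and from -0.63 to 0.44 for genotype after CCL3. Sparc ranged from -0.20 to 0.62 for the CCL3 average, from -0.28 to 0.42 for CCL3 under the label Ccl3-/-, from -0.46 to 1.16 for CCL3 in the wild type and from -1.09 to 0.53 for the interaction. The cause of these changes was not tested, beyond each setting using fewer arrays.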
